A study of Mus musculus with 46 samples.

Results

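The genes described here are 31 genes of sterol and fatty acid synthesis, chosen by name from the gene table, in which all 31 were found among 33331 gene rows. They were followed in whole gonad pairs of mouse embryos at embryonic day E12.5, the age at which XX and XY gonads have begun to differ. Poly(A)-selected RNA was sequenced in 46 libraries, 24 XX and 22 XY. The embryos were wild type or mutant at Enh13, a remote enhancer of Sox9, a gene of testis development. Each sex had 6 groups. Wild types and heterozygotes of the 1bp-ins and of the 3bp-del allele had 3 libraries each. Homozygotes of 1bp-ins, of 3bp-del and of the genotype labelled 3bp-12bp-del had 5 each, or 3 for 3bp-12bp-del in XY. What makes up the 3bp-12bp-del genotype is not said in the labels, and no strain, Cre driver or transgene is named. Whether replicate libraries came from different embryos is not said in the labels, so p-values measure the spread between these samples, which may be technical.

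Cells make cholesterol and fatty acids from acetyl-CoA. The mevalonate pathway builds isoprenoid units, squalene is closed to lanosterol, and a chain of demethylations and reductions leads to cholesterol, while acetyl-CoA carboxylase and fatty acid synthase build saturated chains that are then elongated and desaturated. The SREBP transcription factors switch on most of these genes when the endoplasmic reticulum is short of sterol, SCAP escorts the SREBPs to the Golgi, and the INSIG proteins hold them back. In gonads, cholesterol is the substrate of steroid hormones and lipid synthesis feeds the membranes of growing tissue.

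SREBPs bind sterol response elements and work with the factors that bind CCAAT and GC boxes, so the bases upstream of the gene starts were searched for TCACNCCAC, CCAAT and GGGCGG on both strands. RefSeq (GRCm38.p6) gave 250 bases before the start for 32 promoters of 24 of the genes. Scd1, Scd2, Stard4, Fads1, Sqle, Fdps and Fdft1 were not in that table. TCACNCCAC was found in 1 of the 32 promoters (3.12%) and in 1.05% of 32851 promoters of all genes. CCAAT was found in 59.4% of the 32 and 33.8% of all, and GGGCGG in 71.9% of the 32 and 32.7% of all. No motif contains another, and a match is a description of the letters and not a binding site. Hmgcs1, whose product makes HMG-CoA, is shown because it held the 1 match to TCACNCCAC, and Insig1, Elovl6 and Fasn were chosen after their values were seen, because results below turn on them. Capitals mark the motifs on either strand, so that CCAAT also appears as ATTGG and GGGCGG as CCGCCC, and bases inside the annotated gene are left out. The Hmgcs1 stretch is chr13:119690101-119690350 on the plus strand, that of Insig1 is chr5:28071162-28071362 on the plus strand, that of Elovl6 is chr3:129532136-129532354 on the plus strand and that of Fasn is chr11:120824548-120824797 on the minus strand.
Hmgcs1: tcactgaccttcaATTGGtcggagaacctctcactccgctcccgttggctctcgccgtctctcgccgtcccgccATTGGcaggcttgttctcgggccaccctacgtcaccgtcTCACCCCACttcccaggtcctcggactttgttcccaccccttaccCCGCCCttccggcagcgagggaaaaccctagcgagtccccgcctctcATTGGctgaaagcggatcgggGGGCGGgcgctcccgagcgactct
Insig1: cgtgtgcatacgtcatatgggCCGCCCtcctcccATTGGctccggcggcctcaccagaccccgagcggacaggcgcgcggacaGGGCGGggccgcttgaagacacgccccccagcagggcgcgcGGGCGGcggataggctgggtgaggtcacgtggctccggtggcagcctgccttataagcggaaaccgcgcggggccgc
Elovl6: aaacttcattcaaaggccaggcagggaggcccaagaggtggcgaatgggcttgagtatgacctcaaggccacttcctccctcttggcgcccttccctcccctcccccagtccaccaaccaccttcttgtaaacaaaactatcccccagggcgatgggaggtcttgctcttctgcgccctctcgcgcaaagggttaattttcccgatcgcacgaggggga
Fasn: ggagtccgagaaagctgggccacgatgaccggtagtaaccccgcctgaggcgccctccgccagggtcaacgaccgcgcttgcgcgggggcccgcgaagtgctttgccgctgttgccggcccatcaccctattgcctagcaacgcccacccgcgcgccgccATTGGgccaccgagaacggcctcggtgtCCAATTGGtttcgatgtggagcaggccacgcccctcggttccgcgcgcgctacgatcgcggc
Hmgcs1 held 3 CCAAT and 2 GGGCGG matches besides the sterol element. The Insig1 stretch held 1 CCAAT and 3 GGGCGG matches, the Fasn stretch held 3 CCAAT matches, and the Elovl6 stretch held none of the 3 motifs in these 219 bases.

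Per length, the most abundant of the 31 genes over all 46 libraries was Scd2, a stearoyl-CoA desaturase, at a mean of 324 TPM (the authors' unit, scaled for transcript length and library total; SD 72.4). Fasn, the fatty acid synthase, followed at 156 TPM, Hmgcs1 at 121 TPM and Fdps, the farnesyl diphosphate synthase, at 103 TPM. At the other end were Scd1, the paralogue of Scd2, at 3.14 TPM, the sterol ketone reductase Hsd17b7 at 4.86 TPM and the sterol reductase Tm7sf2 at 8.22 TPM. Scd1 also varied most, with its highest library 6.33 times its lowest, and Acaca, which encodes acetyl-CoA carboxylase 1, and the elongase Elovl6 followed with ratios of 4.24 and 4.18. The steadiest were Acat2, the cytosolic thiolase that joins acetyl-CoA units, with a ratio of 1.42, and the desaturase Fads1, with 1.49.

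**Figure D1:**
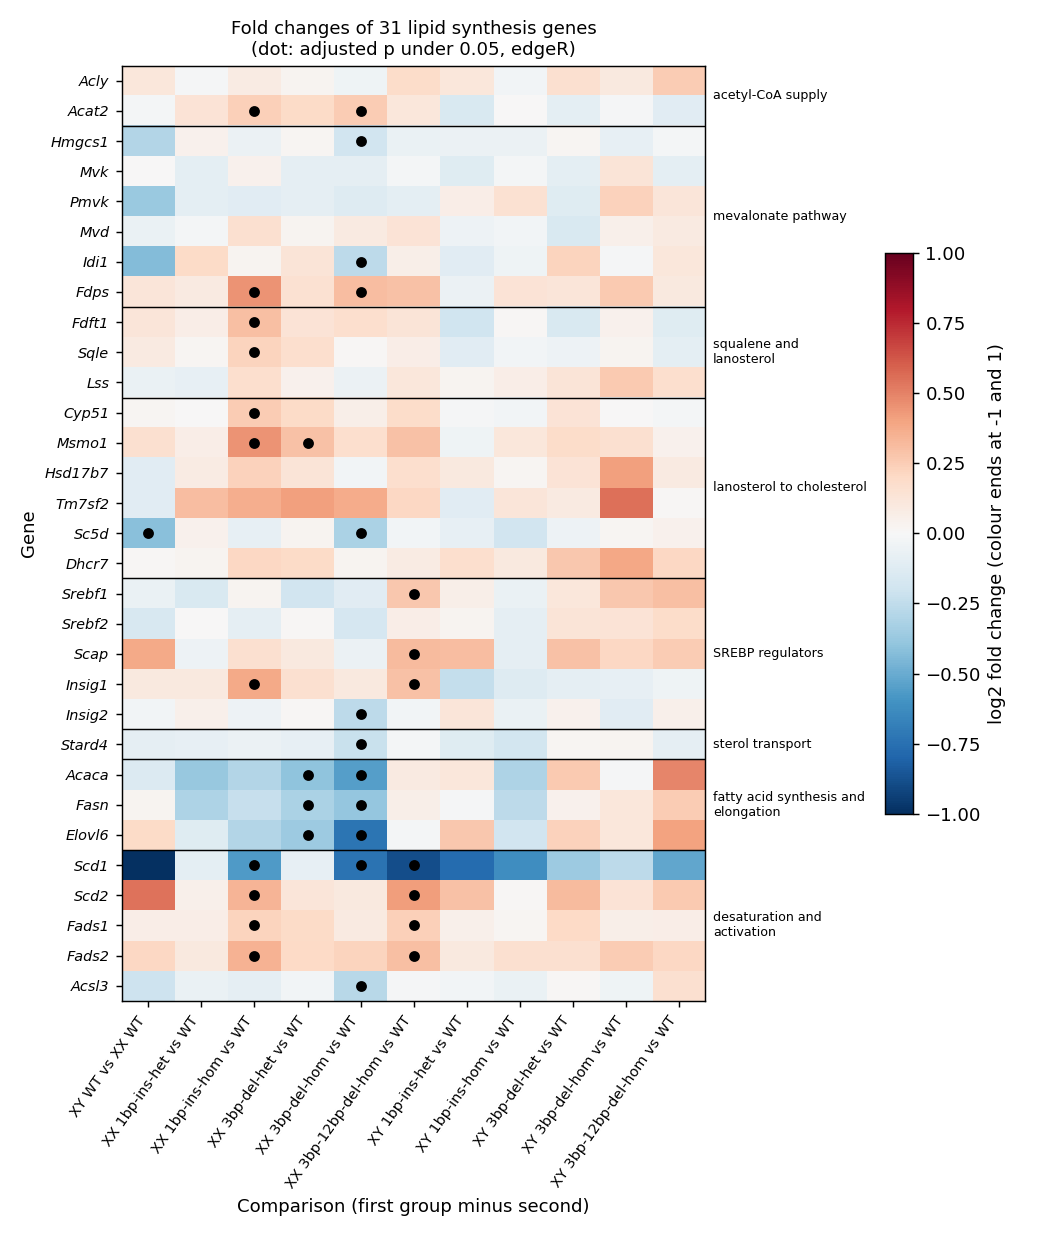
Colour gives the log2 fold change of each of the 31 genes (rows, by role) in 11 comparisons (columns), and a dot marks an edgeR adjusted p under 0.05. The dots lie in the columns of the XX homozygotes, the XX 3bp-del heterozygotes and, for Sc5d, the wild-type sexes, and no dot lies in the 5 XY mutant columns.

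Libraries held 29909111 to 46150400 estimated counts. Markers of gonadal somatic cells were present in all libraries, with summed levels of 971 to 2130 CPM (counts scaled to the library total). The wild-type XY library of replicate 3 stood apart, with the lowest gonadal sum and a mesonephros marker sum of 226 CPM, against 13.2 and 21.1 CPM in the other wild-type XY libraries. The first library of the XY 3bp-del homozygotes stood apart in another way, with a stromal marker sum of 5220 CPM against 1680 to 2080 CPM in its group. XX 3bp-del homozygote replicate 4 had a mesonephros sum of 124 CPM against 24.0 to 30.6 CPM in its group, and XX wild-type replicate 1 had an adrenal chromaffin sum of 290 CPM. In whole gonads, fewer cells of a type and less RNA per cell cannot be told apart. Calls of the lipid genes were also tested with each library left out. Counts of marker genes and values of other pathway genes are given with all libraries only.

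Between the wild types, Sc5d, the lathosterol desaturase of late cholesterol synthesis, was the 1 gene of the 31 called, and it was lower in XY. That is 3.23% of the 31, against 11% of all genes tested. Sc5d measured 23.0, 24.4 and 25.0 CPM in XX and 17.9, 16.8 and 20.7 CPM in XY, with no overlap between the sexes (log2 fold change -0.42 ± 0.10 SE, edgeR adjusted p = 0.0454). Leaving out any 1 of the wild-type libraries other than XY replicate 3 ended that call (adjusted p 0.116 to 0.18), and it was also lost with RLE scaling (adjusted p = 0.0585), where Scd2 was called instead (0.55, adjusted p = 0.0492).

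Sertoli markers were higher in XY for 9 of 10 genes and pregranulosa markers lower for 9 of 10, and their part in the lipid genes' values was not tested. The stearoyl-CoA desaturases showed the widest gaps between the wild types without passing the test. Scd2 measured 842.9, 861.2 and 864.8 CPM in XX and 1489, 1249 and 1057 CPM in XY (log2 fold change 0.54 ± 0.14, edgeR adjusted p = 0.0598). Scd1 measured 17.2, 18.1 and 15.9 CPM in XX, and 5.08, 5.83 and 15.2 CPM in XY (-1.01 ± 0.40, adjusted p = 0.167). The high Scd1 value and the low Scd2 value of XY were in the same library, replicate 3, the one with the mesonephros signal.

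Without that library the picture was wider: 13 of the 31 genes were called, 7 higher and 6 lower in XY, while 43.3% of all genes were called. Scd1 was then lower by 1.66 ± 0.13 on the log2 scale (edgeR adjusted p = 5.06e-05) and Scd2 higher by 0.66 ± 0.08 (adjusted p = 0.000326). Scap, the SREBP escort, rose by 0.53 ± 0.11 (adjusted p = 0.00577), and the delta-6 desaturase Fads2 by 0.33 ± 0.06 (adjusted p = 0.00412). Of the sterol genes, Msmo1, Fdft1 and Sqle were higher, Sc5d, Pmvk and Hmgcs1 were lower, and the other calls were Insig1 (higher), Srebf2 and Acsl3 (lower). The part of the mesonephros signal in the comparison with all libraries was not tested.

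The XX homozygotes are the groups in which testis genes came on. Of 10 Sertoli cell markers, 10 rose in the 1bp-ins homozygotes, 10 in the 3bp-del homozygotes and 9 in the 3bp-12bp-del homozygotes, against wild-type XX. Their summed level was 24.1 to 34.3 CPM in wild-type XX, 346 to 1880 CPM in the 1bp-ins, 340 to 630 CPM in the 3bp-del and 401 to 950 CPM in the 3bp-12bp-del homozygotes. Pregranulosa markers fell, 9, 8 and 10 of 10 in the same order, from 817 to 1110 CPM in wild-type XX to 174 to 442, 459 to 557 and 268 to 510 CPM. Of 8 endothelial markers 5, 7 and none fell, and of 8 macrophage markers 2, 3 and 5 fell. Of 8 mesonephros markers 2, 1 and 3 fell, with sums of 45.7 to 67.2 CPM in wild-type XX and 19.1 to 38.6, 24.0 to 124 and 17.5 to 32.3 CPM in the homozygotes. Of 5 general gonadal somatic markers 2 rose in each group and 0, 1 and 1 fell. Steroidogenic cell markers, whose cells use cholesterol, rose for 3, 6 and 5 of 10 genes and fell for 0, 1 and 1, and their sum went from 71.6 to 86.8 CPM in wild-type XX to 97.5 to 551, 90.8 to 141 and 114 to 155 CPM. No marker of these lists was at 0 in every library of a group. The part of these cell types in the changes of the lipid genes was not tested, and the 3 comparisons share the wild-type XX libraries.

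**Figure D2:**
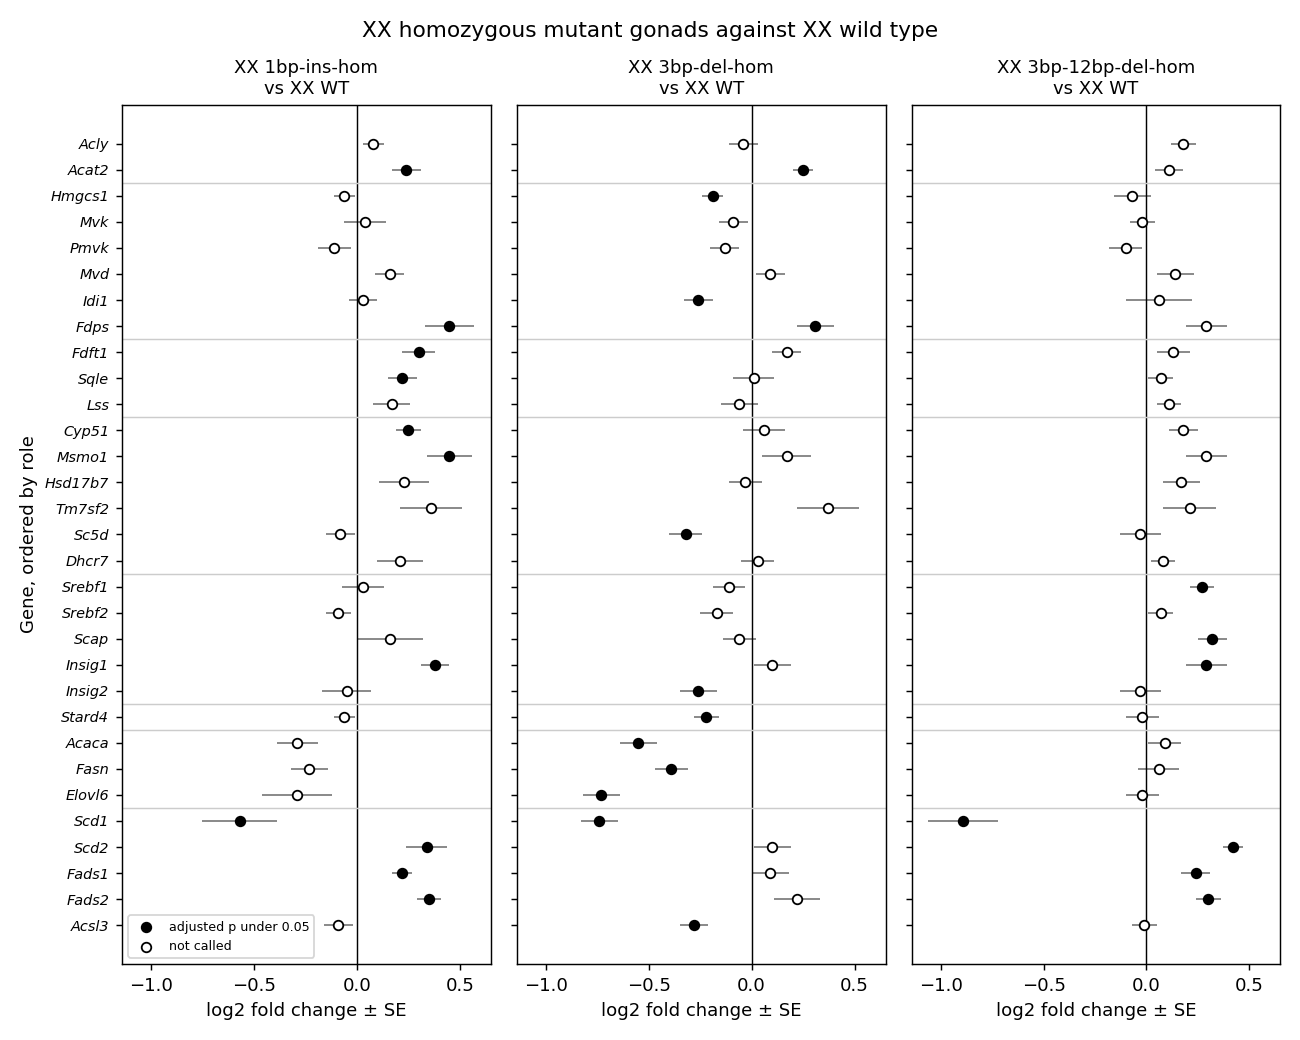
Each point is the log2 fold change of a gene against wild-type XX with its standard error, in the 3 XX homozygous genotypes, with genes ordered by role and filled points called at an edgeR adjusted p under 0.05. Scd1 lies left of 0 in all 3 panels, at -0.57, -0.74 and -0.89, and Elovl6 at -0.73 in the middle panel.

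In XX 1bp-ins homozygotes, 10 of the 31 genes rose and 1 fell. The genes that rose were Acat2, Fdps, Fdft1, Sqle, Cyp51 and Msmo1 of the sterol pathway, Insig1, and the desaturases Scd2, Fads1 and Fads2. Higher were 1 of 6 mevalonate genes, 2 of 3 squalene and lanosterol genes and 2 of 6 genes from lanosterol to cholesterol. Scd1 fell. These calls are 35.5% of the 31, near the 32.3% of all genes called (17.2% higher and 15.1% lower). The median log2 fold change of the 31 was 0.16, against 0.00 over all genes.

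Of the mevalonate enzymes, Fdps passed. It measured 66.5, 69.9 and 54.9 CPM in wild-type XX and 82.0, 87.3, 85.9, 76.1 and 106 CPM in the 1bp-ins homozygotes. All 5 homozygote libraries were above the wild type (log2 fold change 0.45 ± 0.12, edgeR adjusted p = 0.0188). Between squalene and lanosterol, the squalene synthase Fdft1 was at 65.6, 65.5 and 58.5 CPM in the wild type and 70.3, 81.8, 79.5, 71.6 and 86.3 CPM in the homozygotes (0.30 ± 0.08, adjusted p = 0.023), and the epoxidase Sqle rose by 0.22 ± 0.07 (adjusted p = 0.0492). Msmo1, the sterol C4-methyl oxidase, was at 35.8, 36.5 and 42.8 CPM in the wild type and 48.7, 54.9, 45.4, 49.7 and 63.6 CPM in the homozygotes, again with no overlap (0.45 ± 0.11, adjusted p = 0.0162). The lanosterol demethylase Cyp51 rose by 0.25 ± 0.06 (adjusted p = 0.0118) and Acat2 by 0.24 ± 0.07 (adjusted p = 0.036).

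Insig1, which retains SREBPs and is itself an SREBP target, was the regulator that rose. It measured 58.0, 56.1 and 49.6 CPM in wild-type XX and 71.2, 75.0, 69.3, 65.5 and 74.7 CPM in the 1bp-ins homozygotes (0.38 ± 0.07, edgeR adjusted p = 0.00496). Srebf1, Srebf2, Scap and Insig2 were not called, with log2 fold changes of -0.09 to 0.16. Fads2 was at 141, 149 and 157 CPM in the wild type and 178, 188, 194, 188 and 206 CPM in the homozygotes (0.35 ± 0.06, adjusted p = 0.00331). Insig1 and Fads2 kept their calls in all 8 fits that left out 1 library, with ranges of 0.31 to 0.43 and 0.32 to 0.38.

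Scd2 rose from the wild-type values above to 1053, 966, 1109, 977 and 1311 CPM (0.34 ± 0.10, edgeR adjusted p = 0.0286). Its paralogue Scd1 went the other way, to 10.8, 11.01, 9.84, 16.5 and 9.39 CPM, so that 1 homozygote library lay within the wild-type range (-0.57 ± 0.18, adjusted p = 0.0341). The genes of chain building, Acaca (-0.29 ± 0.10, adjusted p = 0.0565), Fasn (-0.23 ± 0.09, adjusted p = 0.0673) and Elovl6 (-0.29 ± 0.17, adjusted p = 0.211), were not called by edgeR. DESeq2 called 10 genes higher and 3 lower, against 36.6% of all genes, and added Acaca and Fasn. Fasn was higher by TPM, at 143.7, 172.7, 159.7, 133.3 and 151.3 against 117.7, 129.1 and 119.3 in wild-type XX with no overlap, and higher with the transcript length offset (0.54 ± 0.09, edgeR adjusted p = 0.00316), so no direction is given for it. Scd1 lost its call without wild-type replicate 1, 2 or 3 or homozygote replicate 1, 2 or 3 (adjusted p 0.0602 to 0.118).

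The number of genes called in XX 1bp-ins homozygotes depended on single libraries. It was 4, 4 and 5 without wild-type XX replicate 1, 2 or 3 (against 23.3%, 18.6% and 19.9% of all genes), and 7 without homozygote replicate 2 or 3 (25.5% and 24.8%). Fdps lost its call without wild-type replicate 3 (adjusted p = 0.0741), and Msmo1 and Cyp51 without replicate 1 or 2 (adjusted p 0.0509 to 0.0707). Sqle lost it in 7 of 8 such fits, all but that without homozygote replicate 4 (adjusted p 0.0562 to 0.163), and also with RLE scaling (0.0542), no filter (0.0514), 12 groups in 1 fit (0.112) and the transcript length offset (0.072). Acat2 lost it without any 1 wild-type library or homozygote replicate 2 or 3 (adjusted p 0.0681 to 0.125), Fdft1 without wild-type replicate 2 or 3 or homozygote replicate 2 or 3 (adjusted p 0.0544 to 0.096), and Fads1 without wild-type replicate 1 (adjusted p = 0.0606). Scd2 lost it without any 1 wild-type library or homozygote replicate 3 (adjusted p 0.0648 to 0.0843). With the replicate number as a block, Cyp51 (adjusted p = 0.0526), Fads1 (adjusted p = 0.0609) and Sqle (adjusted p = 0.063) lost their calls. Replicate 5, which had the highest Sertoli (1880 CPM) and steroidogenic (551 CPM) sums, also held the highest Fdps, Fdft1, Sqle, Cyp51, Msmo1 and Scd2 values, and without it 9 genes were higher and 3 lower, against 35.2% of all genes.

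In XX 3bp-del homozygotes, 10 of the 31 genes fell by count and 2 rose. Scd1 (-0.74) and Elovl6 (-0.73) had the largest fold changes. Acaca and Fasn, which build fatty acid chains, were also lower by count, but Acaca lost its call when the length trend was removed and Fasn was higher by TPM, as given below. These 12 calls are 38.7% of the 31, below the 44.8% of all genes called (21.6% higher and 23.1% lower), and the median of the 31 was -0.06, against -0.03 over all genes.

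Elovl6, which lengthens palmitate to stearate, measured 67.3, 73.4 and 67.2 CPM in wild-type XX and 45.7, 47.9, 35.6, 42.4 and 41.2 CPM in the 3bp-del homozygotes. Every homozygote library was below every wild-type library (log2 fold change -0.73 ± 0.09, edgeR adjusted p = 0.000141). Acaca, the rate-limiting carboxylase of fatty acid synthesis, was at 119.8, 133.7 and 129.3 CPM in the wild type and 85.1, 94.0, 89.7, 99.6 and 74.6 CPM in the homozygotes (-0.55 ± 0.09, adjusted p = 0.000552). Scd1 was at 9.11, 11.3, 10.2, 10.8 and 10.8 CPM in the homozygotes, below the 15.9 to 18.1 CPM of the wild type (-0.74 ± 0.09, adjusted p = 0.000158). Acsl3, which activates long-chain fatty acids, fell by 0.28 on the log2 scale (adjusted p = 0.00831).

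Sterol genes moved in both directions. Acat2 rose, from 83.4, 86.4 and 81.0 CPM to 103, 100.2, 108, 97.03 and 97.25 CPM (0.25 ± 0.05, edgeR adjusted p = 0.00302), and Fdps rose to 90.5, 78.0, 83.0, 72.3 and 78.4 CPM (0.31 ± 0.09, adjusted p = 0.0169). Acat2 was above every wild-type library in all 5 homozygote libraries, and so was Fdps. Idi1, the isopentenyl diphosphate isomerase, fell from 79.7, 71.7 and 65.9 CPM to 63.6, 65.8, 63.6, 58.8 and 56.3 CPM (-0.26 ± 0.07, adjusted p = 0.0133). Sc5d fell to 20.7, 20.6, 18.9, 17.2 and 21.1 CPM (-0.32 ± 0.08, adjusted p = 0.00655). Hmgcs1 (-0.19), Insig2 (-0.26) and the sterol carrier Stard4 (-0.22) also fell, and the groups overlapped for Insig2. Insig2 was lower by 0.78 ± 0.14 with the transcript length offset (adjusted p = 0.00144), and by TPM its groups did not overlap, at 19.9, 12.25 and 16.7 in the wild type and 8.22, 9.43, 7.81, 7.43 and 7.79 in the homozygotes. Its assigned length differed, at -0.18 in the wild type and 0.32 in the homozygotes relative to the 46-library mean on the log2 scale. Stard4 was at 47.8, 50.6 and 47.2 CPM in the wild type and 41.1, 44.3, 44.9, 41.9 and 40.7 CPM in the homozygotes (SE 0.06, adjusted p = 0.00951).

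With counts scaled by TMM and no correction for length, 7 of the 12 calls held whichever library was left out: Acat2, Sc5d, Acaca, Fasn, Elovl6, Scd1 and Acsl3. Idi1 lost its call without wild-type XX replicate 1 (adjusted p = 0.0684), Stard4 without replicate 2 (adjusted p = 0.056), Fdps without replicate 3 (adjusted p = 0.0686) and Hmgcs1 without replicate 2 or 3 (adjusted p 0.0547 to 0.0594). Insig2 lost it in 5 of 8 such fits. How many genes were called in each direction depended on the fit. The 2 higher and 10 lower became 4 and 10 with DESeq2 (47.1% of all genes) and 3 and 5 in the fit over all 12 groups (39.5%). With transcript length as an offset they became 3 and 7 (40.6%).

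Deviations of libraries of the same replicate number were correlated in these 2 groups (r 0.118 to 0.411), which does not establish a pairing. With the replicate number as a block, the count rose from 12 to 20 (10 higher and 10 lower, against 51.6% of all genes called), because Fdft1, Cyp51, Msmo1, Tm7sf2, Insig1, Scd2, Fads1 and Fads2 were called higher (0.12 to 0.51). Without replicate 4, the homozygote library with the mesonephros signal and the lowest Sertoli sum (340 CPM), the count was also 20, with 11 higher and 9 lower, again against 51.6% of all genes. That library was the lowest of its group for Sqle (68.8 CPM), Cyp51 (68.2 CPM), Msmo1 (32.9 CPM) and Fads2 (133 CPM), and the part of the mesonephros signal was not tested.

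Fold changes in this comparison went with transcript length. Across all genes, Spearman's rho between the log2 fold change and the relative transcript length, the log2 ratio of the deposited count to its TPM, was -0.477, and across the 31 genes it was -0.47, as a description over genes that share libraries. The same rho over all genes was -0.388 in XX 1bp-ins homozygotes, -0.448 and -0.408 in XX 3bp-del and 1bp-ins heterozygotes, -0.219 in XX 3bp-12bp-del homozygotes and -0.513 in XY 1bp-ins homozygotes. In XX 1bp-ins homozygotes, removing the trend ended the calls of Fdps (adjusted p = 0.0889) and Acat2 (adjusted p = 0.0909) and moved Scd2 from 0.34 to 0.59 (adjusted p = 0.00452). The genes of chain building are long: Acaca stands at percentile 97.3 of relative length and Elovl6 at 92.0. With the length trend removed, 3 of the 31 genes were higher and 5 lower, against 32.9% of all genes, Elovl6 was lower by 0.37 ± 0.09 (edgeR adjusted p = 0.0103) and Scd1 by 0.45 ± 0.08 (adjusted p = 0.00206). Acaca lost its call (-0.06, adjusted p = 0.532), as did Fasn (-0.16, adjusted p = 0.127). Of the genes of the sterol pathway and of activation, Hmgcs1 (-0.08, adjusted p = 0.378), Fdps (0.14, adjusted p = 0.242), Sc5d (-0.25, adjusted p = 0.0548), Stard4 (0.03, adjusted p = 0.755) and Acsl3 (-0.17, adjusted p = 0.121) lost theirs too. Sc5d and Acsl3 also lost theirs with the transcript length offset (adjusted p 0.0648 and 0.077). With the block and the length trend together, 13 genes were higher and 4 lower, against 41.5% of all genes, with Scd2 at 0.55 ± 0.04 (adjusted p = 1.37e-05) and Elovl6 at -0.33 ± 0.08 (adjusted p = 0.0143). With the block and the transcript length offset 10 were higher and 6 lower, against 45.1% of all genes.

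Fasn gave opposite answers by count and by TPM. Its counts fell, from 421.6, 495.1 and 463.9 CPM in wild-type XX to 341.5, 390.5, 369.5, 381.2 and 307.6 CPM in the 3bp-del homozygotes (-0.39 ± 0.08, edgeR adjusted p = 0.00335). Its TPM rose, from 117.7, 129.1 and 119.3 to 166.5, 181.9, 188.2, 149.9 and 166.8. Neither scale showed an overlap between the groups. The ratio of the 2 deposited values gives the length that the authors' quantification assigned to the transcripts, and for Fasn it was above the 46-library mean by 0.58 on the log2 scale in wild-type XX and below it, at -0.51, in the homozygotes. With that length as an offset in the fit, Fasn was higher by 0.71 ± 0.07 (adjusted p = 8.72e-05), and the sign was also turned in the 3bp-del heterozygotes (0.33, adjusted p = 0.021). Whether transcript forms of Fasn changed or reads were assigned differently was not tested, so no direction is given for Fasn mRNA. For Elovl6 the length hardly differed (-0.05 in the wild type and -0.00 in the homozygotes), and its TPM fell as its counts did, from 20.8, 22.9 and 19.8 to 10.7, 12.45, 8.73, 11.1 and 10.1 TPM.

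**Figure D3:**
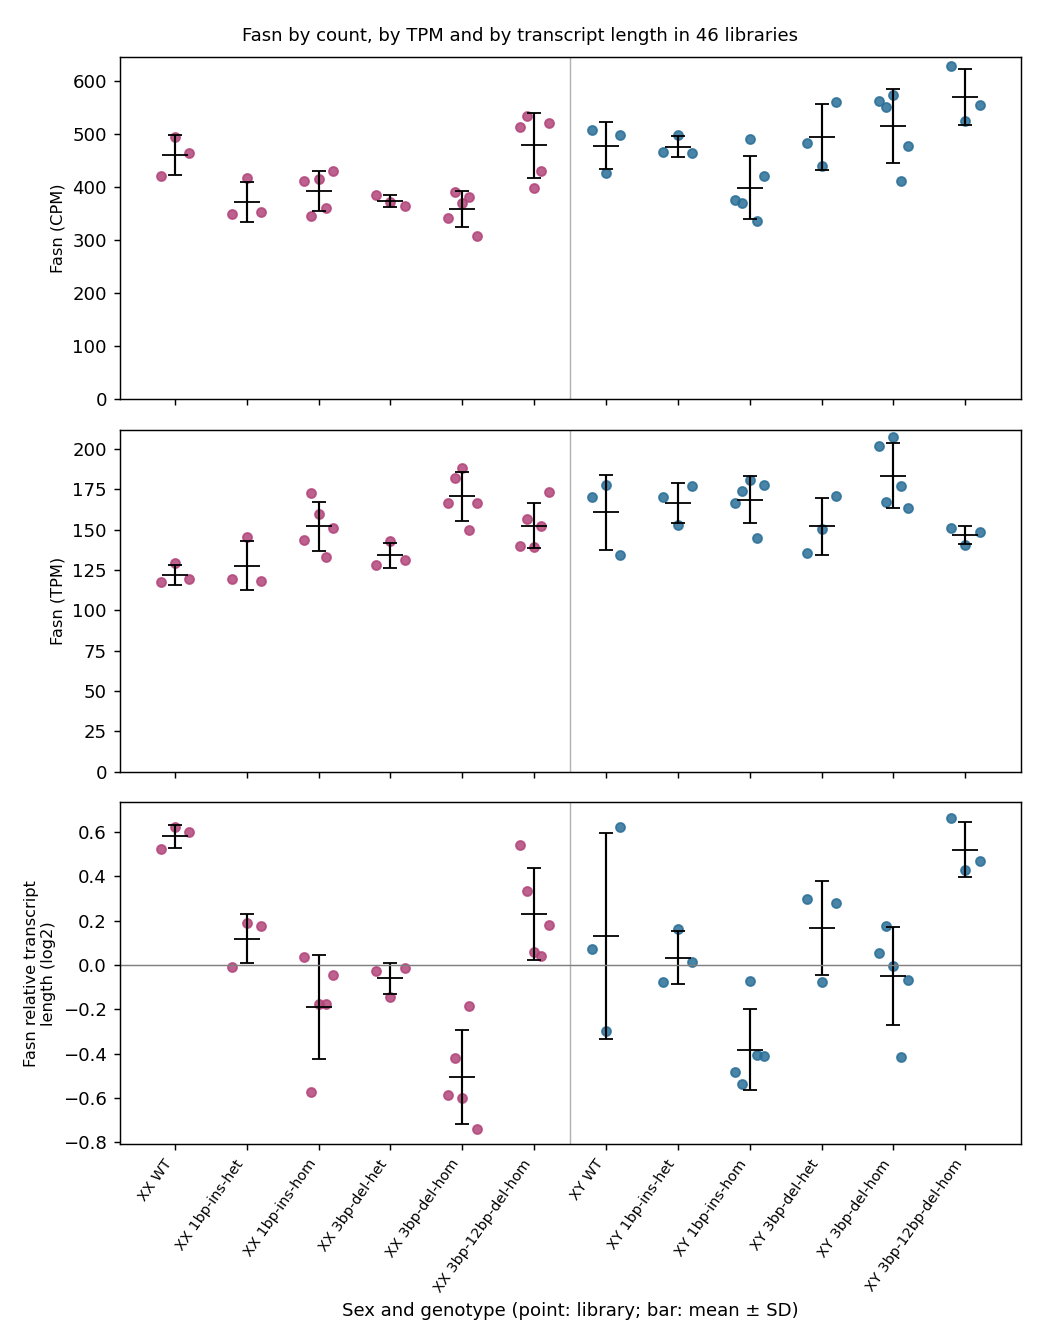
Fasn is shown in all 46 libraries by CPM, by TPM and by the log2 of its transcript length relative to the mean of all libraries, with bars for the mean ± SD of each group. XX 3bp-del homozygotes lie below wild-type XX by CPM and above it by TPM, and their mean relative length is -0.51 against 0.58.

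In XX 3bp-12bp-del homozygotes, 6 genes rose and 1 fell. Srebf1, Scap, Insig1, Scd2, Fads1 and Fads2 rose, and Scd1 fell. These 7 are 22.6% of the 31, against 25.6% of all genes called (14.6% higher and 11% lower), and the median of the 31 was 0.11, against 0.00 over all genes.

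Scap measured 81.0, 86.2 and 97.8 CPM in wild-type XX and 112, 109.6, 102, 115 and 114 CPM in the homozygotes (0.32 ± 0.07, edgeR adjusted p = 0.00753). Srebf1, which drives fatty acid genes, was at 58.0, 62.5 and 65.0 CPM in the wild type and 76.8, 70.9, 73.6, 74.6 and 77.1 CPM in the homozygotes (0.27 ± 0.06, adjusted p = 0.00653). Neither gene's groups overlapped, and both lost their calls in the fit over all 12 groups (adjusted p = 0.0671 for Scap and 0.0831 for Srebf1) and with the replicate block (0.104 and 0.0857). Insig1 was at 62.6, 63.4, 80.3, 67.5 and 60.2 CPM (0.29 ± 0.10, adjusted p = 0.0487), and 7 of the 8 fits that left out 1 library ended its call, those without any 1 library other than homozygote replicate 3 (adjusted p 0.0506 to 0.17).

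Scd2 rose most evenly, to 1087, 1195, 1121, 1179 and 1145 CPM against 842.9 to 864.8 CPM in wild-type XX (0.42 ± 0.05, edgeR adjusted p = 0.000605). Fads2 rose to 171, 195, 180.3, 191 and 184 CPM (0.30 ± 0.06, adjusted p = 0.00512) and Fads1 by 0.24 ± 0.07 (adjusted p = 0.023), which was lost in 5 of 8 fits that left out 1 library, those without homozygote replicate 2, 4 or 5 or wild-type replicate 1 or 2 (adjusted p 0.0509 to 0.0951). Scd1 fell to 9.42, 9.21, 12.8, 7.26 and 7.27 CPM, all below the wild type (-0.89 ± 0.17, adjusted p = 0.00508). With the replicate block Scd1 (adjusted p = 0.0503), Fads2 (adjusted p = 0.0551) and Fads1 (adjusted p = 0.0615) lost their calls. Chain building genes were not called here: Acaca was at 0.09 ± 0.08, Fasn at 0.06 ± 0.10 and Elovl6 at -0.02 ± 0.08. Fasn was called higher with the transcript length offset (0.41 ± 0.08, adjusted p = 0.00727). No member of the mevalonate, squalene or late sterol groups was called, with Fdps at 0.29 ± 0.10 (adjusted p = 0.0553) and Msmo1 at 0.29 ± 0.10 (adjusted p = 0.0617).

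Scd1 and Scd2 lie near each other on chromosome 19, with Scd4 between them (GRCm38; Scd2 chr19:44293674-44306864 on the plus strand, Scd1 chr19:44394455-44407879 on the minus strand). Both encode enzymes that put the first double bond into stearate and palmitate. Scd2 ranged from 758 to 1311 CPM over the XX libraries and from 1057 to 1673 CPM over the XY libraries. Scd1 ranged from 7.26 to 18.2 CPM over XX libraries, and over XY libraries from 3.85 to 8.51 CPM apart from wild-type replicate 3 (15.2 CPM) and 3bp-del homozygote replicate 1 (15.9 CPM). All but 1 of the 15 XX homozygote libraries lay below wild-type XX for Scd1, and XY libraries were mostly lower still. In the fit over all 12 groups Scd1 was not called in XX 1bp-ins homozygotes (adjusted p = 0.139) or 3bp-del homozygotes (adjusted p = 0.0579), and with the length trend removed not in 1bp-ins homozygotes (adjusted p = 0.161). The 2 XY libraries high in Scd1 are those that stood apart in mesonephros and stromal markers. Of the 31-base words in Scd1 transcripts 8.18% also occur in other genes, most in Scd3, and for Scd2 6.81%.

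**Figure D4:**
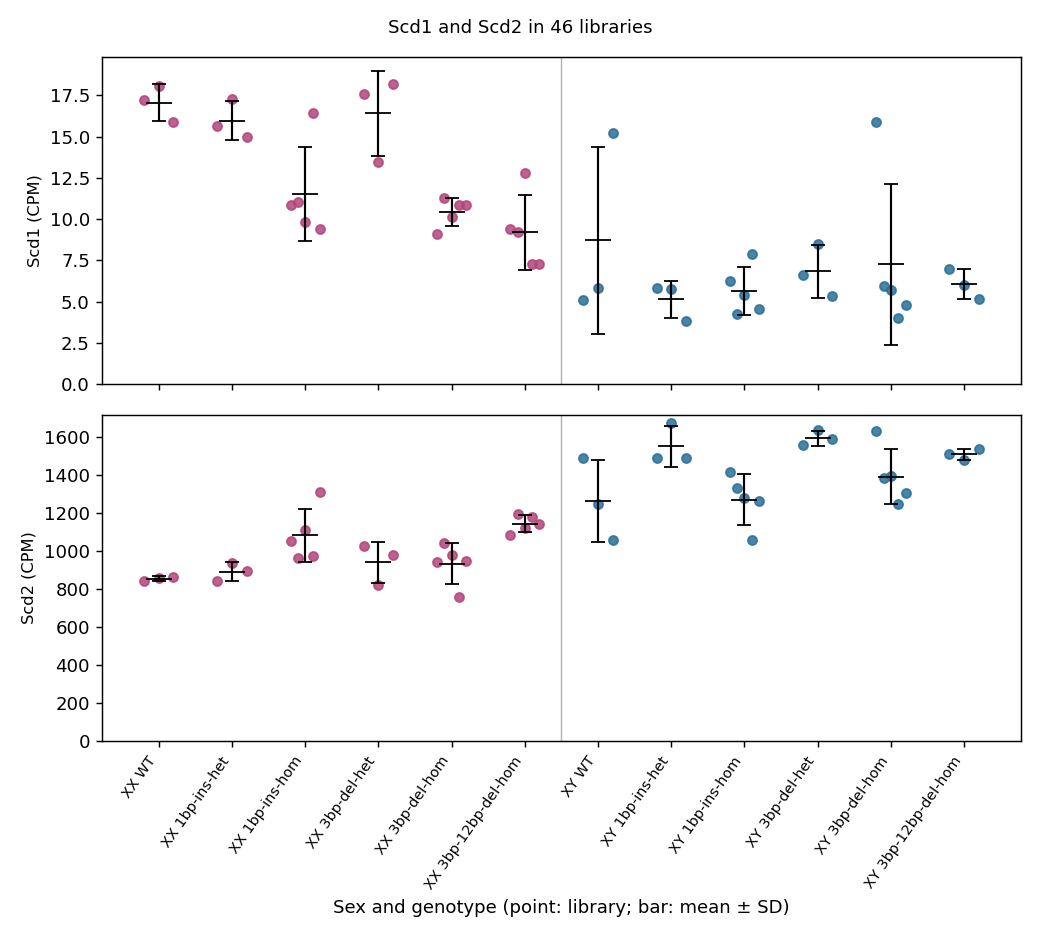
Scd1 (top) and Scd2 (bottom) are shown as CPM in each of 46 libraries, with bars for the mean ± SD of each sex and genotype. Scd1 is at 15.9 to 18.1 CPM in wild-type XX and lower in most libraries of the XX homozygotes, while Scd2 is at 842.9 to 864.8 CPM in wild-type XX and at 1057 CPM or more in every XY library.

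The XX heterozygotes had 3 libraries a group. In 1bp-ins heterozygotes edgeR called none of the 31 genes, and 0.0% of all genes, with 3 of the 31 at an unadjusted p under 0.05. DESeq2 called 1 of the 31 (0.599% of all genes), Acaca (-0.38, adjusted p = 0.0366), at 93.5, 114 and 89.1 CPM against 119.8 to 133.7 CPM in wild-type XX. In 3bp-del heterozygotes 4 were called, 12.9% of the 31, against 10.9% of all genes (4.78% higher and 6.15% lower). Msmo1 rose, Acaca and Elovl6 fell, and Fasn was lower by count. The 3bp-del homozygotes were compared with the same wild-type libraries.

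Elovl6 measured 54.1, 55.3 and 54.8 CPM in the 3bp-del heterozygotes, all below wild-type XX (-0.36 ± 0.06, edgeR adjusted p = 0.0121). Acaca was at 107, 92.4 and 95.4 CPM (-0.40 ± 0.07, adjusted p = 0.0133) and Fasn at 385.4, 371.3 and 364.7 CPM (-0.32 ± 0.07, adjusted p = 0.0212). Msmo1 was at 49.1, 46.9 and 46.6 CPM (0.29 ± 0.08, adjusted p = 0.046). None of the 4 was called without wild-type XX replicate 2 (1.04% of all genes called), with the length trend removed (1.82%), or in the fit over all 12 groups (4.24%), and Fasn turned sign with the transcript length offset as above, so no direction is given for it.

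Against their own heterozygotes, the XX homozygotes of each allele kept some of these differences. In 1bp-ins homozygotes 5 genes were higher and none lower (16.1% of the 31, against 17.3% of all genes, 8.49% higher): Fdps (0.34), Cyp51 (0.23), Msmo1 (0.37), Insig1 (0.26) and Fads2 (0.24), with edgeR adjusted p from 0.0355 to 0.0454. Insig1 was at 53.0, 60.5 and 63.0 CPM in the heterozygotes, below all 5 homozygote libraries. No member was called without heterozygote replicate 1, 2 or 3 (12.9%, 3.98% and 4.28% of all genes) or homozygote replicate 2 (9.22%). Without homozygote replicate 1 there were 2 (15.2%) and without replicate 3 there was 1 (7.92%).

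In 3bp-del homozygotes 7 genes were lower than in the heterozygotes and none higher (22.6% of the 31, against 27.1% of all genes, 13.1% lower), and the median of the 31 was -0.11, against 0.01. Idi1 fell most clearly among the sterol genes, from 78.3, 84.4 and 77.9 CPM in the heterozygotes to the 56.3 to 65.8 CPM of the homozygotes (-0.38 ± 0.06, edgeR adjusted p = 0.0017). Scd1 fell from 17.6, 13.5 and 18.2 CPM (-0.65 ± 0.11, adjusted p = 0.00191), and Elovl6 was lower than in the heterozygotes (-0.36, adjusted p = 0.0109). Hmgcs1 (-0.21), Sc5d (-0.34), Insig2 (-0.26) and Acsl3 (-0.24) were the other calls. Without heterozygote replicate 1 the count was 3, against 17.1% of all genes, with Hmgcs1, Sc5d, Insig2 and Acsl3 lost. In the fit over all 12 groups Scd1 (edgeR adjusted p = 0.118) and Elovl6 (adjusted p = 0.0744) lost their calls. Elovl6 also lost its call with the length trend removed (adjusted p = 0.0776). Idi1 alone kept its call in every fit.

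Set directly against each other, XX 1bp-ins and 3bp-del homozygotes differed in no gene of the 31 by edgeR (0.128% of all genes called, 11 of the 31 at an unadjusted p under 0.05). The value was higher in 1bp-ins homozygotes for 28 of the 31, with a median of 0.14, against 0.00 over all genes. The share of all genes that were higher is not given here, and the 31 share libraries. Spearman's rho between the log2 fold change and relative transcript length was 0.277 over all genes and 0.335 over the 31. In 3bp-del homozygotes, replicate 4 was the lowest for Sqle, Cyp51, Msmo1 and Fads2. The part of length and of that library in the 28 was not tested. DESeq2 called 1 gene of the 31 (1.72% of all genes), Idi1 (0.27, adjusted p = 0.00182), at 79.0, 69.8, 73.6, 72.7 and 75.6 CPM in the 1bp-ins homozygotes. So the calls of Insig1, Scd2 and Fads2 in 1 genotype and of Elovl6 and Acaca in the other are not shown to differ between them.

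In XY gonads no gene of the 31 was called in any mutant group against wild-type XY by edgeR or DESeq2. EdgeR called 0.0% of all genes in the 1bp-ins heterozygotes, 1bp-ins homozygotes, 3bp-del heterozygotes and 3bp-del homozygotes and 0.013% in the 3bp-12bp-del homozygotes. DESeq2 called 0.261%, 0.765%, 0.111%, 1.13% and 0.942% of all genes, in that order. At an unadjusted p under 0.05 the 5 comparisons held 0, 1, 0, 1 and 3 of the 31, in that order. Leaving out any 1 library, wild-type XY replicate 3 included, called none of the 31. The fit over all 12 groups called 2 genes of the 31 (1.23% of all genes) higher in the 3bp-12bp-del homozygotes, Acly (0.25, adjusted p = 0.046) and Acaca (0.49, adjusted p = 0.0493). Acaca measured 186.5, 170.8 and 142.5 CPM there, against 126.5, 96.0 and 132.5 CPM in wild-type XY, and Acly, the ATP citrate lyase that supplies cytosolic acetyl-CoA, was at 349, 355 and 338 CPM against 297, 283 and 294 CPM.

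The first library of the XY 3bp-del homozygotes stood out in many of the sterol genes. It measured 32.9 CPM for Sc5d against 14.5 to 15.7 CPM in the other 4 libraries, 34.5 CPM for Hsd17b7 against 10.5 to 12.1 CPM, and 14.3 CPM for Tm7sf2 against 5.48 to 6.35 CPM. It was also the highest of its group for Stard4 (72.6 CPM), Sqle (129.7 CPM), Msmo1 (67.2 CPM), Insig1 (69.6 CPM) and Idi1 (67.8 CPM), and the lowest for Fads1 (187 CPM). The part of its stromal signal (5220 CPM) was not tested. Without it the comparison with wild-type XY still called none of the 31.

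**Figure D5:**
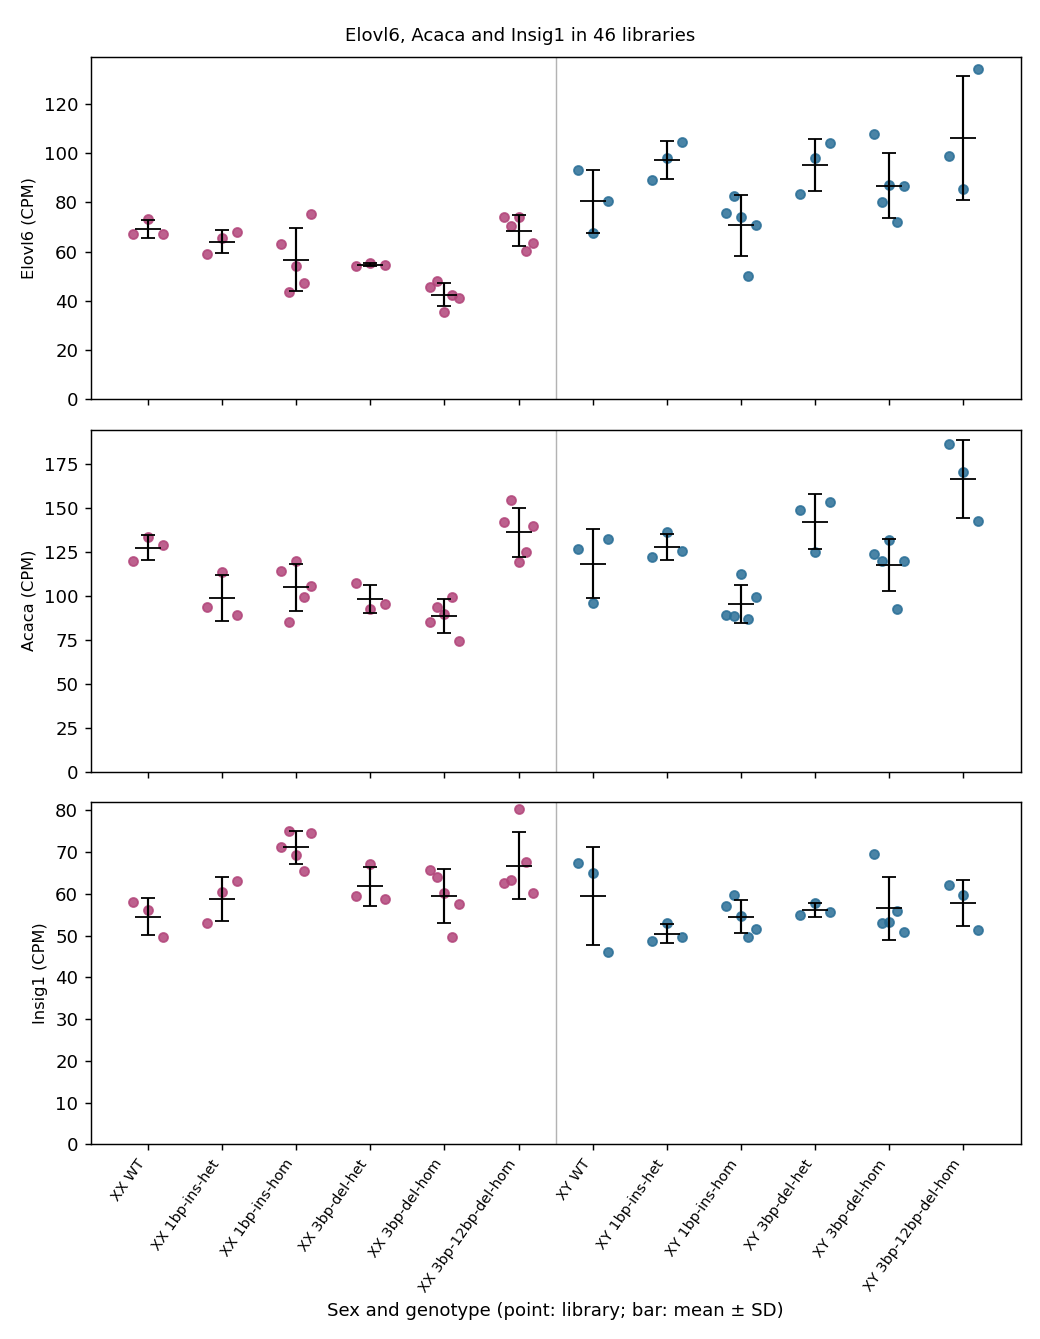
Elovl6, Acaca and Insig1 are shown as CPM in each of 46 libraries, with bars for the mean ± SD of each sex and genotype. XX 3bp-del homozygotes lie at 35.6 to 47.9 CPM for Elovl6, below the wild-type XX libraries at 67.2 to 73.4 CPM, while XY 3bp-del homozygotes lie at 72.2 to 108 CPM.

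Whether a genotype acted differently in the sexes was tested as an interaction. For the 3bp-del homozygotes 1 gene of the 31 passed, Elovl6, while 3.83% of all genes did. It fell by 0.73 in XX, and in XY it was at 107.8, 80.1, 87.0, 72.2 and 86.6 CPM in homozygotes against 93.0, 67.6 and 80.6 CPM in wild type (0.11 ± 0.15). The difference of the effects, XY minus XX, was 0.82 ± 0.18 (edgeR adjusted p = 0.0212). The call was lost without wild-type XX replicate 2 or wild-type XY replicate 2 (adjusted p 0.0657 to 0.076) and with the length trend removed (adjusted p = 0.0829). Counts of calls were 2 without XY homozygote replicate 1 (3.38% of all genes), 3 without replicate 4 (4.84%) and 4 without wild-type XY replicate 3 (22.9%). In that last fit Acaca (0.62) and Fasn (0.51) were also higher by count and Acat2 (-0.30) lower. No direction is given for Fasn, whose XX change turned sign with the transcript length offset. The XX call of Acaca was lost with the length trend removed.

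For the 1bp-ins homozygotes edgeR called no interaction among the 31 (1.04% of all genes, 6 of the 31 at an unadjusted p under 0.05, and none by DESeq2, which called 2.49% of all genes), with a median of -0.11, against -0.02 over all genes. For the 3bp-12bp-del homozygotes it called none either (0.597% of all genes, 1 of the 31 at an unadjusted p under 0.05, and none by DESeq2, which called 2.61%). Both counts rested on wild-type XY replicate 3. Without it 5 genes were called for 1bp-ins, all more negative in XY, with Insig1 at -0.66 ± 0.10 (adjusted p = 0.0021) and the others being Fdft1, Sqle, Cyp51 and Fads2. Without it 5 were called for 3bp-12bp-del as well, with Scd1 at 1.04 ± 0.27 (adjusted p = 0.0208), Scd2 at -0.28 ± 0.09 (adjusted p = 0.0495), and Fdft1, Sqle and Insig1 negative, while 9.53% and 17.9% of all genes were called in these 2 fits.

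Other genes of the pathways were counted from lists that hold no member. Of 28 tested sterol genes, 2 rose and 6 fell in XX 1bp-ins homozygotes, 3 rose and 11 fell in 3bp-del homozygotes, and 3 rose and 4 fell in 3bp-12bp-del homozygotes, and none rose and 4 fell from XX to XY wild type. Of the 33 or 34 tested fatty acid genes, 9 rose and 4 fell, 8 rose and 8 fell, 8 rose and 4 fell, and 5 rose and 4 fell, in the same order. Over all genes 32.3%, 44.8%, 25.6% and 11% were called in these comparisons, and the counts of the lists are not read as particular to them. The pathway genes named here and below are given from TMM-scaled counts with all libraries and no correction for transcript length. How far they depend on length or on single libraries is not given here. Abca1, which exports cholesterol from cells, was at 96.4, 100.2 and 121 CPM in wild-type XX. It fell to 48.4, 45.7, 41.4, 53.1 and 91.8 CPM in 1bp-ins (-0.92 ± 0.25, edgeR adjusted p = 0.0259) and to 35.1, 44.3, 39.2, 50.5 and 43.8 CPM in 3bp-del homozygotes (-1.34 ± 0.12, adjusted p = 4.66e-05). In 3bp-12bp-del homozygotes it fell to 70.8, 58.4, 52.4, 52.9 and 56.5 CPM (-0.86 ± 0.11, adjusted p = 0.0007).

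The sterol dehydrogenase Nsdhl, which acts with Msmo1 and Hsd17b7, rose in all 3 XX homozygous groups from 18.2, 19.1 and 18.2 CPM in wild-type XX. It was at 30.4, 33.5, 31.2, 32.4 and 38.0 CPM in 1bp-ins (0.84 ± 0.08, edgeR adjusted p = 0.000721), 29.7, 30.7, 31.5, 24.0 and 27.0 CPM in 3bp-del (0.60 ± 0.09, adjusted p = 0.000432) and 26.9, 28.1, 25.4, 29.2 and 27.7 CPM for the 3bp-12bp-del genotype (0.57 ± 0.06, adjusted p = 0.000409). No homozygote library overlapped the wild type. Me1, the malic enzyme that supplies NADPH, rose in all 3 XX homozygous groups, by 1.45, 1.00 and 1.24, from 70.8, 82.2 and 91.1 CPM to 119 CPM or more in every homozygote library (adjusted p 0.0247, 0.0011 and 0.0038). Acacb, the carboxylase of mitochondria, fell in the same 3 groups, from 21.9, 19.6 and 16.6 CPM in wild-type XX to 10.4, 10.1, 8.08, 9.31 and 10.5 CPM in 3bp-del homozygotes (-1.03 ± 0.11, adjusted p = 9.29e-05). It fell by 0.77 in 1bp-ins (adjusted p = 0.00462) and by 0.62 in 3bp-12bp-del homozygotes (adjusted p = 0.00544), by 0.50 in 3bp-del heterozygotes (adjusted p = 0.0375), and by 0.87 from XX to XY wild type (adjusted p = 0.0214). Scd4, another desaturase of the Scd cluster, had 0, 2 and 1 counts in wild-type XX, 1, 21, 25, 8 and 22 in 1bp-ins and 14, 11, 5, 26 and 26 in 3bp-12bp-del homozygotes, too few for a fold change.

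Some members share sequence with other genes, and the labels do not say how such reads were counted. In the GENCODE M21 annotation (GRCm38), 43.7% of the 31-base words of Acat2 transcripts also occur in Acat3, 31.7% of those of Acaca in Gm5182, 24.6% of those of Fdps in Gm43738 and 18.4% of those of Idi1 in Gm13502. Fdft1 shares 17.6% with Ctsb on the opposite strand and Scap 11.3% with 5830462I19Rik, and without strand those reads cannot be told apart. Hmgcs1 shares 10.9% with Gm48342 on the opposite strand, and Tm7sf2 shares 10.7% with Vps51. Values of these genes are less certain for that reason. Fasn (chr11:120805846-120824547), Fads1 (chr19:10182888-10196877), Acly, Insig2, Pmvk and Mvd shared none. With all other genes together, Elovl6 (chr3:129532355-129638495) shared 6.52%, Insig1 (chr5:28071363-28078662) 3.46% and Fads2 (chr19:10062765-10101746) 0.729%. On that wider measure Acaca shared 33.5%, Fdft1 31.9%, Fdps 27.9%, Idi1 27.1%, Tm7sf2 13.3% and Hmgcs1 13.1%.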

How the data were processed

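Poly(A)-selected RNA from whole E12.5 gonad pairs was purified on Qiagen RNeasy Plus micro columns and made into NEBNext UltraExpress libraries, per the labels' protocols. The submitters' processing notes name mm10 as the build. Aligner, quantifier, annotation and strand setting were not given in the sources used here. Per gene, the authors deposited estimated counts, not normalized, of which 8.0 to 8.9% per library were not whole, and these were rounded here. The deposited TPM values, scaled by the authors for length, summed to 923510 to 945851 per library. Each table held 1 column that matched no sample, which was not used.

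Genes were tested with edgeR 4.0.16 in R 4.3.3 (quasi-likelihood test, TMM scaling, filterByExpr, only the groups compared in each fit), and a call is a Benjamini-Hochberg adjusted p under 0.05 over all genes tested. All 31 members passed the filter in all 17 comparisons. Standard errors were taken from the log2 fold change and its F statistic. CPM values are TMM-scaled. Replicates were compared over 71 pairs, and none agreed within sampling noise (lowest chi-square per degree of freedom 12.56). The fits were tested on simulated data. Alternatives were DESeq2 1.42.0, RLE scaling, no filter, 12 groups in 1 fit, replicate number as a block, a loess trend on transcript length (span 0.5) removed, and each library left out. The transcript length offset, alone or with the block, and the block with the length trend were added after seeing the data.

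Members given with library values are, by rule, the up to 4 called genes of largest fold change per comparison, with at least 1 gene of each role named. Other genes, such as Srebf1, were named after their values were seen. Of the other pathway genes the rule takes the up to 2 called with the largest fold change in each XX homozygote comparison, and 1 it takes is not reported here. The members and lists were chosen with earlier results of these data known. Same-numbered libraries of XX 3bp-del homozygotes and wild-type XX deviated together in 3 of 3 pairs (r 0.118 to 0.411), above the threshold of 0.1. In no other comparison against wild type did all pairs pass that threshold. Over all comparisons same-numbered pairs had r from -0.456 to 0.709, and differently numbered pairs were not compared across groups. A pairing is not stated in the labels and is not established by these values.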

Additional observations from a re-analysis of the deposited data

Results flagged for a closer look

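In groups of 5 libraries, a single library was set apart from the others by a gap test (Dixon's 95% critical value) in 24 of 155 tests of member genes, where chance flags about 1 in 20. XY 3bp-del homozygote replicate 1 was high for Idi1 (67.8 CPM), Sqle (130 CPM), Msmo1 (67.2 CPM), Hsd17b7 (34.5 CPM), Tm7sf2 (14.3 CPM), Sc5d (32.9 CPM), Insig1 (69.6 CPM), Stard4 (72.6 CPM) and Scd1 (15.9 CPM), and low for Fads1 (187 CPM). It is the library with a stromal marker sum of 5220 CPM. XX 3bp-del homozygote replicate 4 was low for Sqle (68.8 CPM), Cyp51 (68.2 CPM), Msmo1 (32.9 CPM) and Fads2 (133 CPM), and had a mesonephros sum of 124 CPM.

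XX 1bp-ins homozygote replicate 5, with a Sertoli sum of 1880 CPM, was high for Mvd (32.3 CPM), Hsd17b7 (18.5 CPM) and Insig2 (18.7 CPM). In the same group replicate 1 was high for Sc5d (25.8 CPM) and Srebf2 (223 CPM), and replicate 4 for Scd1 (16.5 CPM). XY 1bp-ins homozygote replicate 4 was low for Fdft1 (62.1 CPM), Sqle (81.7 CPM) and Scap (80.3 CPM). XX 3bp-12bp-del homozygote replicate 1 was high for Lss (39.0 CPM). The effect of the 3bp-del homozygous genotype on Elovl6 was called as different between the sexes, by 0.82 on the log2 scale (edgeR interaction test, adjusted p = 0.0212). That call was lost without wild-type XX replicate 2 or wild-type XY replicate 2 (adjusted p 0.0657 to 0.076). It was also lost with the length trend removed (adjusted p = 0.0829). The part of the marker signals in these values was not tested.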

How the results depend on the processing

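Of 49 results for single genes, the alternatives other than leaving out a library kept direction and side of the threshold in 275 cases, lost the call in 87 and turned the direction in 5. Leaving out 1 library kept 282 and lost 110. The turned results were Fasn with the transcript length offset in XX 3bp-del heterozygotes (0.33) and homozygotes (0.71, and 0.77 with the block), whose offset is the length ratio given above, and Stard4 in XX 3bp-del homozygotes with the length trend removed (0.03, and 0.08 with the block). The cause was not tested for Stard4 or for the counts below.

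Counts of members called that moved by over 1.5 times were as follows. Between the wild types the count of 1 became 0 with no filter, 3 with DESeq2 and 5 in the fit over all groups. It became 0 with the transcript length offset. Of all genes, DESeq2 called 17.9% between the wild types and the fit over all groups 29.6%, against 11% in the main fit. For XX 1bp-ins heterozygotes DESeq2 called 1 (0.599% of all genes). For XX 3bp-del heterozygotes the count of 4 became 7 with DESeq2, 0 over all groups and 0 with the length trend removed. These fits called 17.1%, 4.24% and 1.82% of all genes, in that order, against 10.9% in the main fit. For XY 3bp-12bp-del homozygotes the fit over all groups called 2 (1.23% of all genes). For XX 1bp-ins homozygotes against heterozygotes the count of 5 became 8 with DESeq2, 3 over all groups and 3 with the transcript length offset. For the 3bp-del alleles the count of 7 became 3 over all groups and 4 with the length trend removed. DESeq2 called 1 between the XX 1bp-ins and 3bp-del homozygotes (1.72%). For the sex interactions, the fit over all groups called 1 for 1bp-ins, and for 3bp-del the count of 1 became 4 with DESeq2, 4 over all groups, 0 with the length trend removed and 2 with the transcript length offset.

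With the replicate number as a block, counts were 20 for XX 3bp-del homozygotes (12 without) and 2 for XX 3bp-12bp-del homozygotes (7 without). They were 1 for XX 3bp-del heterozygotes, 0 between the wild types and 2 for XX 1bp-ins homozygotes against heterozygotes. Over all genes the block fit called 51.6% for XX 3bp-del homozygotes, 3.22% for XX 3bp-del heterozygotes and 6.92% between the wild types. That share is not given here for XX 3bp-12bp-del homozygotes or for 1bp-ins homozygotes against heterozygotes. Their counts are not read as particular to these genes. All same-numbered pairs passed the threshold of 0.1 for XX 3bp-del homozygotes and for none of the other 4 comparisons. With the block and the transcript length offset the count for XX 3bp-del homozygotes was 16, 10 higher and 6 lower (45.1% of all genes). With the offset alone 3 were higher and 7 lower (40.6%).

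Leaving out 1 library gave counts from 0 to 13 between the wild types (4.0 to 43.3% of all genes) and 4 to 12 for XX 1bp-ins homozygotes (18.6 to 35.2%). They were 0 to 3 for XX 3bp-del heterozygotes (1.04 to 7.66%), 9 to 20 for XX 3bp-del homozygotes and 5 to 8 for XX 3bp-12bp-del homozygotes. The 20 without XX 3bp-del homozygote replicate 4 stood against 51.6% of all genes. Against heterozygotes they were 0 to 6 for 1bp-ins, the fits with 0 calling 3.98 to 12.9% of all genes. For 3bp-del they were 3 to 8, with 17.1% called where heterozygote replicate 1 was left out. For the sex interactions they were 0 to 5 for 1bp-ins, 0 to 4 for 3bp-del and 0 to 5 for 3bp-12bp-del. Without wild-type XY replicate 3 these were 5, 4 and 5, against 9.53%, 22.9% and 17.9% of all genes. The counts are not read as particular to these genes.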
